A study of Drosophila melanogaster with 4 samples.

Results

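Binding of TCF around 3 transcription factor genes of the early fly embryo, twist (twi), snail (sna) and escargot (esg), was read from a ChIP-seq peak list of Drosophila melanogaster embryos. In ChIP-seq, chromatin is cross-linked, the fragments carrying a protein are captured with an antibody and their DNA is sequenced, and a peak is a stretch where a caller found more ChIP reads than expected. A peak was taken as a member when its midpoint lay on 2R between 18920000 and 18955000 (twi, a window of 35 kb), on 2L between 15465000 and 15490000 (sna, 25 kb) or on 2L between 15310000 and 15350000 (esg, 40 kb). All coordinates are on FlyBase release 5. The windows held 10 of the 4589 peaks in the list, which were 1 at twi, 5 at sna and 4 at esg.

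The study mapped TCF in whole embryos, labelled as 0 to 8 h, from the strain Y cn bw sp. Besides the marker alleles cn[1], bw[1] and sp[1], the labels give y[1] with oc[R3.2] on the X, the second-chromosome alleles CG33964[R4.2], Gr22d[1] and Gr22b[1], and on the third chromosome Rh6[1], GstD5[1], MstProx[1], lab[R4.2] and LysC[1]. This background was shared by all the libraries, 2 made with a rabbit polyclonal serum against the N-terminus of TCF and 2 from input DNA without the antibody. The embryos are of unknown sex and hold every tissue, so mesoderm makes up only a part of the chromatin, and binding in few cells cannot be told apart from weak binding in many. The collection protocol in the labels instead speaks of an egg laying of 8 to 16 h, so the stage behind every value is in doubt. Whether the replicates are separate embryo collections is not stated. The file is 1 list that names no library and gives no value per library, and how the replicates entered it is not stated, so no value below has a replicate error, and how deeply each library was sequenced is unknown.

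TCF, encoded by pangolin (pan), binds DNA on behalf of the Wingless (Wnt) pathway. In the absence of the signal it holds target genes down together with the co-repressor Groucho, and it turns them on when the co-activator Armadillo joins it. Twist is a basic helix-loop-helix activator that sets the mesoderm apart in the ventral embryo. Snail is a zinc-finger repressor that Twist switches on there, and it keeps neuroectodermal genes off. Escargot is a zinc-finger repressor of the Snail family, known for its roles in imaginal cells and at the tips of tracheal branches and not as a gene that sets up the mesoderm. Wingless signalling later divides the mesoderm within each segment, and the heart precursors depend on it.

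The twi window differed in its TCF peaks from the sna and esg windows, whose peaks overlapped in their ranges of score and width. Their medians were not equal. The median score was 18.3 at sna and 11.7 at esg, and the median width was 311 bp at sna and 466.5 bp at esg. The twi window held a single wide peak with a score of 203.47, the sna window held 5 peaks with scores from 7.38 to 22.31, and the esg window held 4 peaks with scores from 7.38 to 29.08. The score is the authors' own value for each peak, deposited without a stated scale; on the scale inferred below, a higher score means a higher pileup of reads. Of the 10 peaks, 1 (the twi peak) was among the 25% of peaks with the highest score in the list, against 24.9% of the 4544 peaks on the 6 main arms (X, 2L, 2R, 3L, 3R and 4). A further 4, of which 3 lay at sna and 1 at esg, brought the number in the upper 50% to 5, against 49.8% of the arm peaks. Their median score of 15.2 lay near the arm median of 15.9, and their median width of 450.5 bp lay near the arm median of 503 bp. Apart from the height and width of the twi peak, the members as a set were thus close to the list in median score and width. Of the 10, 8 were narrower than the arm median.

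**Figure D1:**
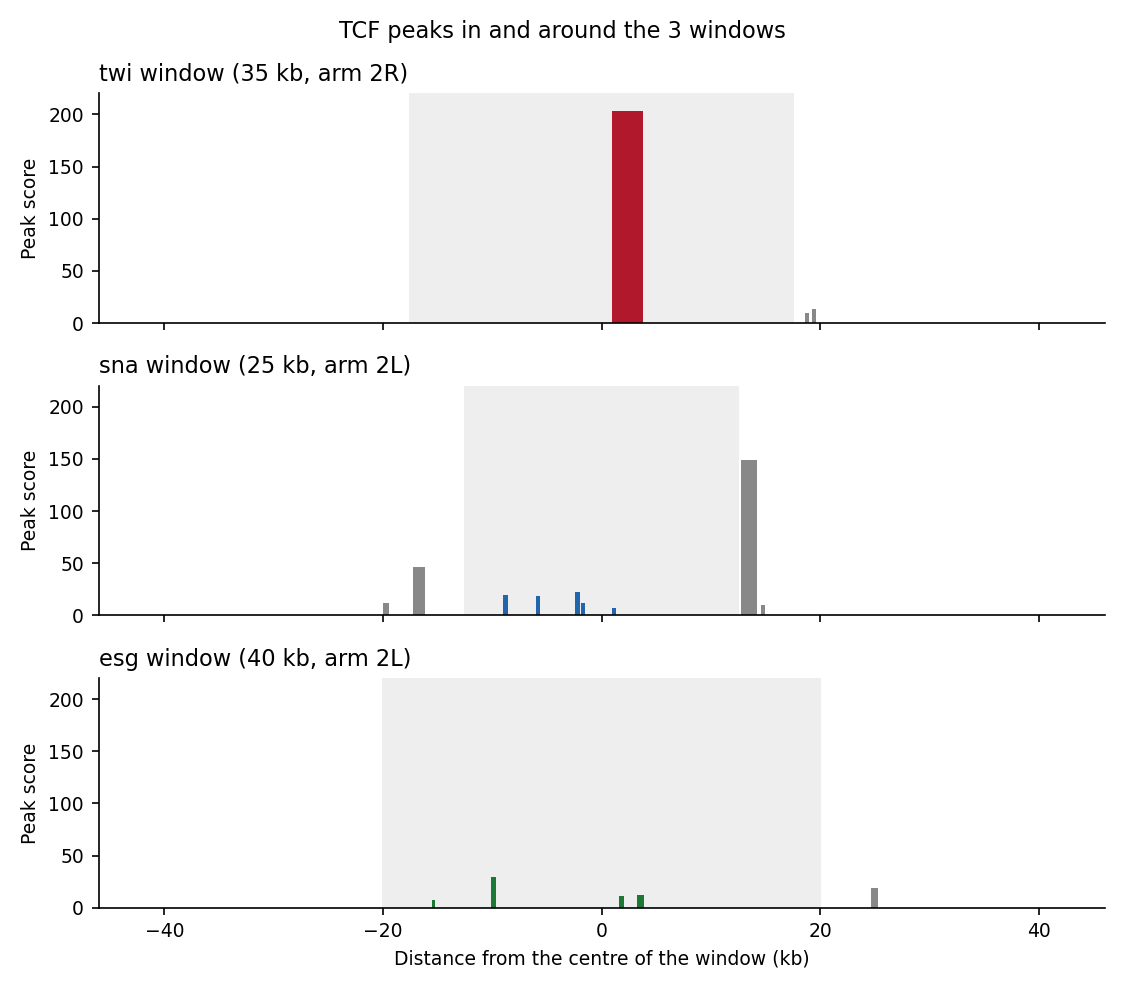
TCF peaks by distance from the centre of each window (kb) and by peak score. The window is shaded, its members are in colour and peaks outside it are in grey. Bars are as wide as the peaks, except that the narrowest peaks are drawn wider than they are. The twi window holds 1 peak with a score of 203.47, no peak of the sna and esg windows exceeds 29.08, and a peak with a score of 149.44 stands just beyond the sna window.

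The twi peak lay at 2R 18938470 to 18941282 and was 2813 bp wide. It ranked 142 by score among all peaks, and 3.13% of the arm peaks scored as high. It was also one of the wide ones, since 1.5% of the arm peaks were as wide. Peaks of 2000 bp or more made up 3.72% of those on the arms. Wide peaks in general score high in this list, and among the 80 arm peaks within 20% of its width the median score was 123.6 and 35.0% scored at least as high. Its height was therefore within the usual range for its width.

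The scores could be turned into a fold. They matched the -log10 tail of a Poisson distribution with an expected pileup of 71.7 reads at 4345 of the 4589 peaks, which gives each matching peak an implied pileup of reads, known to within 1, and a fold over that single expectation. The fold is not over the input at the place of the peak, and it is high by selection because the caller scores the maximum. For the twi peak the implied pileup was 459, or 6.40-fold (95% exact Poisson interval 5.83 to 7.01, counting error only). The median over the 4304 matching arm peaks was 2.12-fold (interquartile range 1.90 to 2.73), and 3.25% of them reached the fold of the twi peak.

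No other peak lay near the twi peak on one side. The stretch before it held no other peak for 112.8 kb, and 5.69% of the 4538 stretches between neighbouring arm peaks were as long. After it, 14.8 kb were free, a length that 33.3% of the stretches reached, before a pair of low-scoring peaks at 18956111 to 18956457 (score 9.69) and 18956765 to 18957101 (score 13.76), whose midpoints lay 1284 and 1933 bp beyond the end of the window. By the distance to the nearest midpoint, 16.4 kb, 14.2% of the arm peaks were as isolated. Beyond that pair, the next peak followed after another 126.3 kb. The twi peak was the highest of the 27 peaks in the 1 Mb around the window, ahead of a peak at 19083442 to 19084443 with a score of 197.05. In the gene order of release 6, which gives names only here, the protein-coding genes before twi are CG42694, CG32834 and CG32833, CG9897, CG9896 and CG42741 overlap it, and Fatp2 follows. No gene model of release 5 was used, so it is not said which part of twi, or which of these genes, the peak covers.

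**Figure D2:**
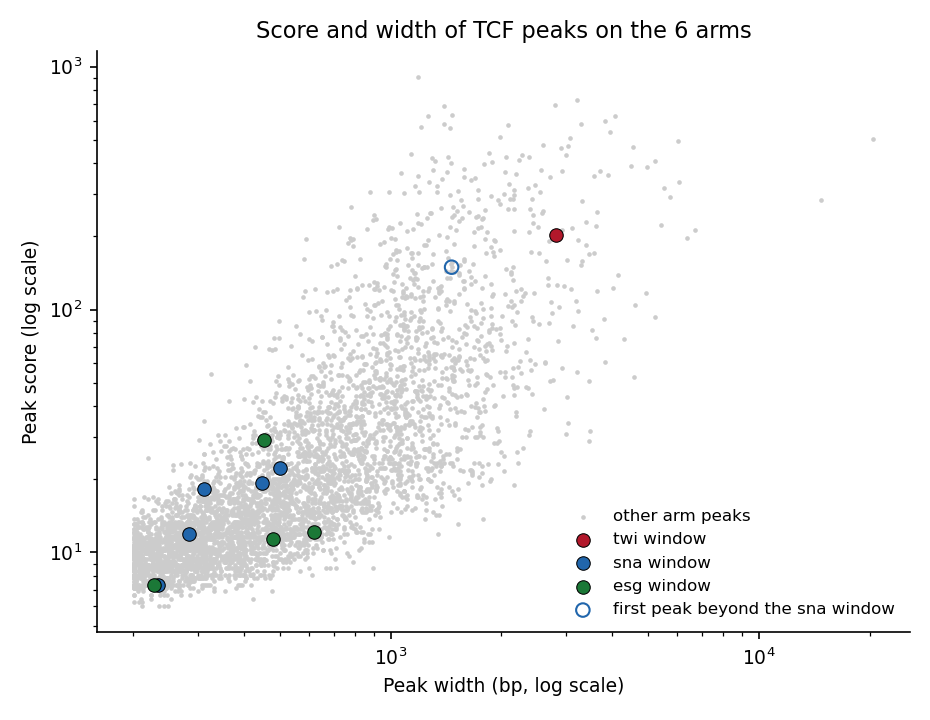
Peak score against peak width (bp), both on log scales, for all peaks of the 6 arms (grey) and the members of the 3 windows (colour), with the first peak beyond the sna window as an open circle. The twi peak lies among the wide, high peaks, and the 9 sna and esg peaks, 228 to 621 bp wide with scores from 7.38 to 29.08, lie within the dense part of the list.

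The sna window held the closest group of peaks, and none of them was among the 25% with the highest score. Their median score of 18.3 was a little above the arm median, and 3 of the 5 lay in the upper 50%. It was not above the median of 18.8 for the 32 peaks in the 1 Mb around the window. Of those 32, 13 scored above the best sna member. In order along 2L they lay at 15468519 to 15468966 (score 19.30), 15471529 to 15471839 (18.30), 15475015 to 15475516 (22.31), 15475646 to 15475929 (11.88) and 15478516 to 15478749 (7.38). They were 234 to 502 bp wide and spanned 10.2 kb. The gaps between them were 2562, 3175, 129 and 2586 bp, so the third and the fourth were nearly continuous. For 4 of the 5 peaks a fold could be given. It was 2.22 (95% exact Poisson interval 1.89 to 2.59) for the second, 2.37 (2.03 to 2.75) for the third, 1.94 (1.63 to 2.29) for the fourth and 1.70 (1.41 to 2.03) for the last. Within each of the sna and esg windows, the implied pileups were also compared in pairs by their ratio, 12 pairs in all. The exact 95% intervals are not adjusted for that number. The higher pileup of each pair was divided by the lower, so the direction was picked from the same values and no ratio can fall below 1. At sna, 2 of the 6 intervals lay above 1, with the third peak 1.39 times (1.10 to 1.77) and the second 1.30 times (1.02 to 1.66) as high as the last. The intervals of the other pairs included 1. The score of the first matched no whole pileup, so it has no fold.

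For its width, the second sna peak was the highest-scoring one. It measured 311 bp, and 7.90% of the 1000 arm peaks of like width scored at least as high. The last peak was among the weakest in the list, with 98.7% of the arm peaks at or above its score. In the release 6 gene order, CG4161 precedes sna and Tim17b2 and lace follow it.

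A strong peak lay just outside the sna window. It spanned 15490235 to 15491698, its midpoint was 966.5 bp beyond the window, and its score of 149.44 ranked 214, with an implied 5.42-fold (95% exact Poisson interval 4.90 to 5.99). It was separated from the last sna peak by a free stretch of 11485 bp, and a weak peak with a score of 10.46 followed it after 461 bp. On the other side, the nearest peak outside lay at 15460199 to 15461362, 4219.5 bp before the window by its midpoint, with a score of 46.06 and an implied 3.12-fold (2.73 to 3.56). Both were higher than every sna member, so the height of TCF peaks near sna depends on where the window ends. Which gene either peak belongs to was not tested.

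The esg window held 4 scattered peaks in 40 kb. They lay at 15314483 to 15314710 (score 7.38), 15319847 to 15320299 (29.08), 15331547 to 15332026 (11.31) and 15333223 to 15333843 (12.18). The second was the highest of all 9 members on 2L. Its fold was 2.61 (95% exact Poisson interval 2.25 to 3.01), and 9.21% of the 955 arm peaks of like width scored at least as high. The third and the fourth, at 1.91-fold (1.60 to 2.26) and 1.95-fold (1.64 to 2.30), lay 1196 bp apart. The first was at 1.70-fold (1.41 to 2.03) and had the same score as the last sna peak. The implied pileup of the second was 1.53 times that of the first (exact 95% interval 1.21 to 1.94), 1.36 times that of the third (1.09 to 1.71) and 1.34 times that of the fourth (1.07 to 1.67). The intervals of the ratios among the first, the third and the fourth included 1.

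No peak was called in the 64.4 kb before the first esg peak, a length that 10.9% of the stretches between arm peaks reached, or in the 20.8 kb after the last one. The 1 Mb around the esg window held 30 peaks, against 32 around sna, which overlaps it, and 27 around twi. The median score of those 30 peaks was 18.8, and 10 of them scored above the best esg member. The esg members had a median score of 11.7, below that value and below the arm median of 15.9. The nearest peak beyond the window, at 15354607 to 15355284, scored 19.37 and had its midpoint 4945.5 bp past the end. In the release 6 gene order, nht precedes esg and CG15258 follows it.

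**Figure D3:**
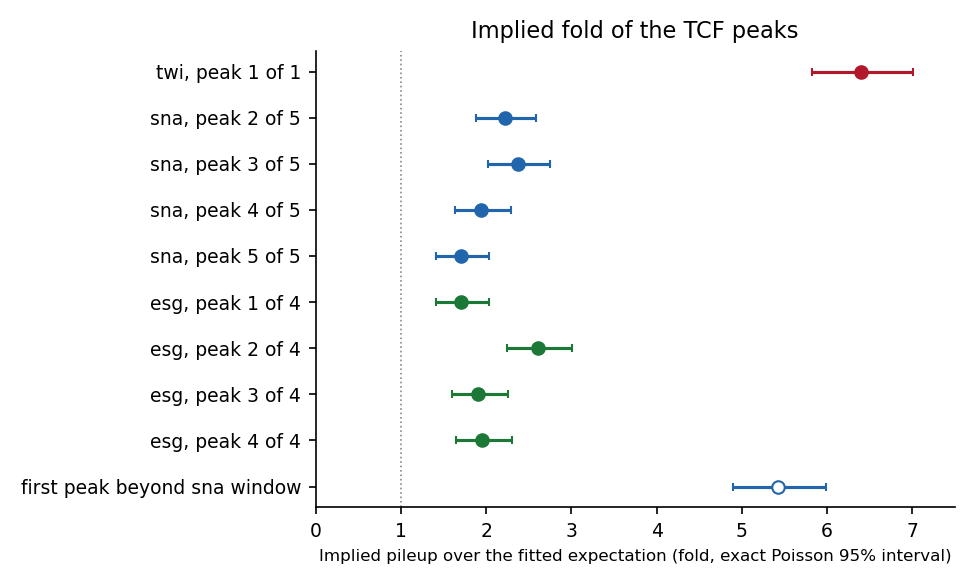
Implied pileup over the fitted expectation (fold) with exact Poisson 95% intervals for the 9 members that have one, numbered along the arm, and for the first peak beyond the sna window (open circle); the dotted line marks the expectation. The twi peak is at 6.40-fold, the sna and esg members lie between 1.70-fold and 2.61-fold, and the peak beyond the sna window is at 5.42-fold.

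The strongest peaks of the 3 loci were set against each other in 3 pairs, with exact 95% intervals that cover counting error only. The implied pileup at twi was 2.70 times that at sna (interval 2.26 to 3.24) and 2.45 times that at esg (2.07 to 2.93). Both intervals lie above 1, so the twi peak was higher beyond counting error. The pileup at esg was 1.10 times that at sna (0.89 to 1.36), an interval that includes 1, so these peaks could not be put in an order. If the peak just beyond the sna window is taken in place of the best sna member, the ratio at twi falls to 1.18 (1.03 to 1.35), and that peak is itself 2.08 times as high as the best esg peak (1.74 to 2.49). The difference between twi and sna therefore rests largely on the limit of the window, and that between twi and esg does not.

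By number, the values of the loci ran in another order. The sna window had 2.00 peaks per 10 kb (95% exact Poisson interval 0.65 to 4.67), the esg window 1.00 (0.27 to 2.56) and the twi window 0.29 (0.007 to 1.59). The density at sna was 7.00 times that at twi (exact 95% interval of the ratio 0.78 to 331) and 2.00 times that at esg (0.43 to 10.1), and that at esg was 3.50 times that at twi (0.35 to 172). All 3 intervals include 1. They treat each called peak as an independent count, although peaks of 1 list are not replicates of a locus. No order by density was therefore drawn from them. The twi peak alone covered 8.04% of its window, the 5 sna peaks covered 7.12% and the 4 esg peaks 4.45%. A single wide peak at twi thus took up about as much of its window as all 5 peaks at sna did. Windows of equal length that were covered as much made up 10.0% of all at the length of twi, 12.2% at that of sna and 19.8% at that of esg. The order of twi and sna changes if each window is made 1 kb longer on both sides, to 7.60% at twi and 9.43% at sna.

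Against windows of the same length laid end to end along the 6 arms, twi ranked high by its best score, sna by its number of peaks, and esg less so by either. These windows are a description of the list, not a test, and they include the stretches of the loci themselves. Of the 3386 windows of 35 kb, 49.1% held a peak, as twi did, but 4.08% held a peak that scored as high as the twi peak. Among the 656 windows with exactly 1 peak, the share with a peak that high was 2.90%. For sna, 4.70% of the 4742 windows of 25 kb held 5 or more peaks, while 23.9% held a peak as high as the best of sna. The windows with exactly 5 peaks numbered 84, and their best peaks had a median score of 65.4; in 7 of them (8.33%) the best peak was lower than at sna. For esg, 14.3% of the 2963 windows of 40 kb held 4 or more peaks, and 28.8% held a peak as high as its best. In 38 of the 133 windows with exactly 4 peaks (28.6%) the best peak was lower than at esg.

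**Figure D4:**
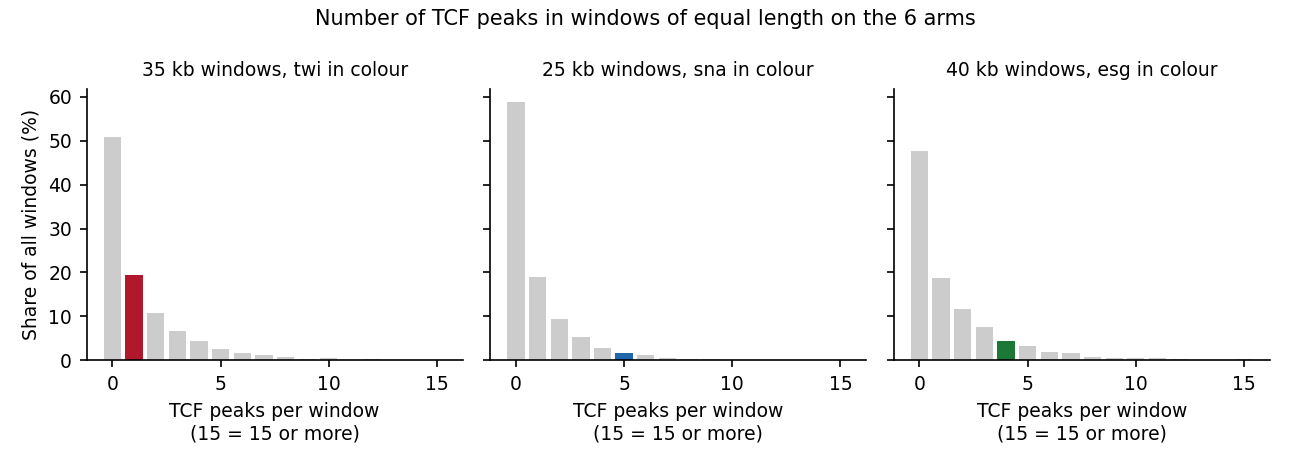
Share of all windows (%) by the number of TCF peaks they hold, for windows of 35, 25 and 40 kb laid end to end on the 6 arms, with the bar that corresponds to twi (1 peak), sna (5 peaks) and esg (4 peaks) in colour. A window with 1 peak is common, and windows with 5 or more peaks in 25 kb make up 4.70%.

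The loci of sna and esg lie on the same arm, together with worniu (wor), a further gene of the Snail family that acts in neural stem cells. In the gene order of release 6, wor lies between esg and sna, with 2 protein-coding genes between esg and wor and 1 between wor and sna. The 115 kb between the esg and sna windows held 4 peaks, or 0.35 per 10 kb, which covered 2.32% of it. The highest was the peak of score 46.06 close to the sna window, and the longest gap between neighbouring peaks of the stretch was 71.2 kb. From the esg window through the sna window, a stretch of 180 kb, the list thus had 13 peaks, 9 of them members, and none of the 13 scored above 46.06.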

How the data were processed

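The deposited data are 1 peak list for a series of 2 ChIP and 2 input libraries. Per the file headers, the list is on FlyBase release 5 with MACS as its feature source. MACS2, BWA, CASAVA (1.7.0.2 and 1.7.0.3) and the BDGP5 build are named, per the submitters' processing notes, without roles. The sources used here do not give the threshold, the read filters or whether replicates were pooled. The score deposited by the authors has no stated scale. Its scale was inferred by searching expected pileups from 1 to 400 for the best match within 0.01 to a Poisson upper tail (94.7% matched, against 33.9% at the best expectation at least 1% away), with a procedure tested on simulated data. Every peak in the windows is named. The loci, lists and measures were chosen with earlier results of these data known. Peaks are not replicates, so no test that takes them as such was run. The ratios of pileups and of densities were read only by intervals that cover counting error. No column of another sample was found (0). Gene names come from a RefSeq table on release 6, and no coordinate was converted. Alternatives were stricter scores, membership by overlap, merged peaks and wider windows. The motifs planned for a search were not searched, because no sequence was used. The scripts ran on Python 3.11.15 with pandas 2.3.3, NumPy 2.4.6, matplotlib 3.10.9 and SciPy 1.17.1.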

Additional observations from a re-analysis of the deposited data

How the results depend on the processing

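Of 142 values recomputed under alternatives, 120 stayed within 1.5 times the reported value; membership by any overlap, merging of peaks closer than 200 or 1000 bp and a tail excluding the observed pileup moved none beyond that. Extending each window by 10 kb on both sides gave 3 peaks at twi (0.55 per 10 kb, median score 13.8, median width 347 bp) and 9 at sna (11.5% covered, highest score 149.44, 5.42-fold). An extension by 1 kb, chosen after the peak beyond the sna window was seen, already gave sna the highest score of 149.44 and 5.42-fold. With only the upper 50% of peaks by score, sna kept 3 peaks (1.2 per 10 kb) and esg 1 (0.25 per 10 kb, 1.13% covered, median score 29.08). With only the upper 25%, sna and esg had 0 peaks, 0 per 10 kb and 0% covered, while twi kept its peak. No score, width or fold could then be given for sna and esg, and these lost values are not among the 142. The 7 values that stayed within 1.5 times under that filter were all of twi, whose single high peak neither score filter removed. No paired analysis was possible because values of single libraries were not analysed here, and no replicate could be left out for that reason. Library depth is unknown, so a stretch without a peak cannot be read as free of TCF.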
